A study of Danio rerio with 2 samples.

Results

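Bipolar cell genes of the zebrafish retina were followed in whole larvae homozygous for lri25 and in their wild-type siblings. The set holds 9 of the 33733 genes in the expression table, namely vsx1, grm6a, grm6b, nyx, rgs11, cabp5a, cabp5b, samsn1a and prkca, each taken as the table row that carries its symbol. They were chosen because they mark bipolar cells and with their values in these libraries already known, so every difference given for them is a description. The lri25 group was a pool of 20 homozygous mutant larvae at 5 days post fertilisation (dpf), and the other group a pool of 20 wild-type siblings from the same clutches at the same age. Both pools came from the AB/TL strain, and RNA was taken from the whole body. Each pool gave 1 library, so no value has a spread between larvae and no test was run. The affected gene is not named in the labels, so no transcript was read as a check of genotype.

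Bipolar cells carry signals from rod and cone photoreceptors to amacrine and ganglion cells. In ON bipolar cells, glutamate released in darkness acts on the receptor mGluR6, whose G protein keeps the cation channel TRPM1 closed. Light lowers glutamate, the G protein is switched off by RGS proteins, the channel opens and the cell depolarises. OFF bipolar cells use ionotropic glutamate receptors in place of mGluR6. The factor Vsx1, the calcium-binding protein CaBP5 and protein kinase C alpha are used to recognise subsets of bipolar cells in vertebrate retinas.

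The 7 genes known mainly from the retina were all lower in the mutant library, by 2.54-fold to 8.38-fold as plain ratios of FPKM (fragments scaled to transcript length and library size). Among them grm6a was under 1 FPKM in both libraries. Their FPKM summed to 11.0 in the mutant and 71.3 in the wild type, so the mutant sum was 15.5% of the wild-type sum. Of the 2 genes with known uses in other tissues, samsn1a was 2.64-fold lower and prkca stood at nearly the same level in both libraries. In RNA from whole larvae, fewer bipolar cells and less of a transcript per cell cannot be told apart. The retinal origin of these transcripts is background knowledge and was not measured here.

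**Figure D1:**
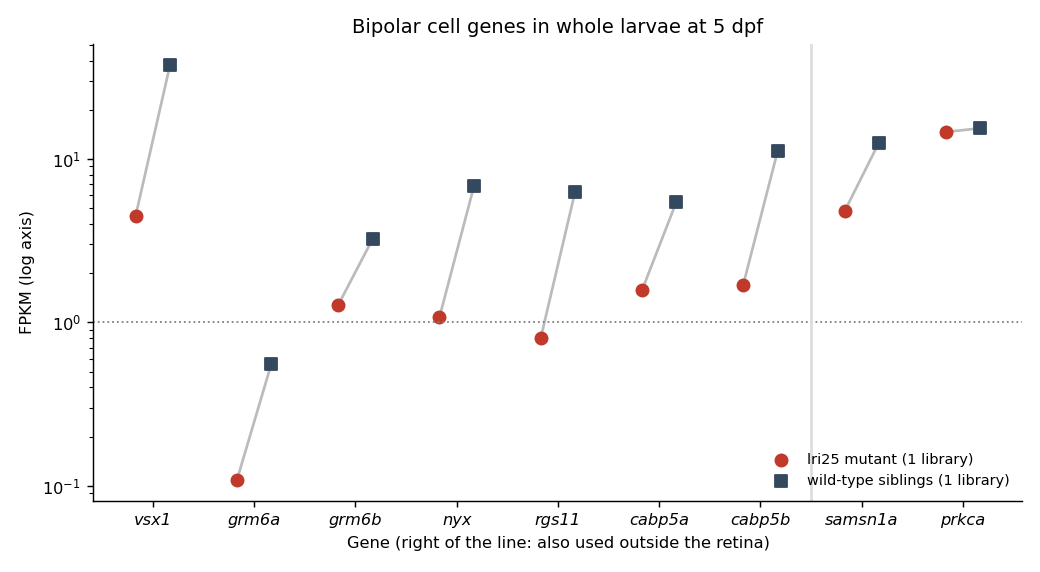
FPKM on a log axis of the 9 bipolar cell genes, with the lri25 mutant library on the left of each pair (circles) and the wild-type siblings on the right (squares), 1 library each and no error bars. The 7 genes left of the vertical line lie lower in the mutant, and prkca lies at 14.6 FPKM in the mutant and 15.4 FPKM in the wild type. The dotted line marks 1 FPKM.

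The homeodomain factor gene vsx1, which acts in bipolar cell differentiation, was the most abundant of the 7 retinal genes in both libraries. It stood at 4.50 FPKM in the mutant and 37.7 FPKM in the wild type, 8.38-fold lower. The gene (ENSDARG00000056292) lies on chromosome 17, 20893556 to 20896258, in build Zv9, at a locus of its own in the table. No other of the 7 genes passed 2 FPKM in the mutant.

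The mGluR6 receptor is encoded by the paralogues grm6a and grm6b, and both had low levels. For grm6b (ENSDARG00000025671, chromosome 11, 26567600 to 26612992) the values were 1.28 FPKM in the mutant and 3.24 FPKM in the wild type, 2.54-fold lower. For grm6a (ENSDARG00000017742, chromosome 8, 9077245 to 9168832) they were 0.109 and 0.558 FPKM in the mutant and the wild type, both under 1 FPKM, and the plain ratio was 5.14-fold lower. Both loci also hold 5S_rRNA entries, all listed at 0 in both libraries.

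Nyctalopin, encoded by nyx, is a leucine-rich repeat protein that mammalian ON bipolar cells need to place TRPM1 at the dendritic tips. The zebrafish nyx gene (ENSDARG00000061791, chromosome 9, 34390319 to 34394507) was at 1.08 FPKM in the mutant and 6.79 FPKM in the wild type, 6.30-fold lower. The gene rgs11 (ENSDARG00000037646, chromosome 1, 8963075 to 8990714) encodes a GTPase-accelerating protein that, in mice, helps to end mGluR6 signalling. Its level was 0.802 FPKM in the mutant and 6.32 FPKM in the wild type, 7.88-fold lower. In the wild type nyx and rgs11 ranked 3 and 4 of the 7 by level, whereas in the mutant they ranked 5 and 6, below cabp5a and grm6b.

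CaBP5 is a calmodulin-like calcium sensor of bipolar cells, and its paralogue cabp5b was the more abundant copy. At cabp5b (ENSDARG00000028485, chromosome 3, 14901418 to 14921986) the mutant had 1.70 FPKM and the wild type 11.2 FPKM, 6.58-fold lower. At cabp5a (ENSDARG00000002576, chromosome 12, 4528622 to 4542272) the mutant had 1.57 FPKM and the wild type 5.48 FPKM, 3.48-fold lower. The level of cabp5b was thus 1.08 times that of cabp5a in the mutant and 2.05 times in the wild type. Whether the paralogues differ in their response was not tested, since no replicate shows how far such a ratio varies.

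Outside the retina samsn1a and prkca have other uses. SAMSN1 is an adaptor protein known from mammalian blood cells, and protein kinase C alpha is a signalling kinase of many tissues. The gene samsn1a (ENSDARG00000054543, chromosome 15, 28898209 to 28956122) was at 4.78 FPKM in the mutant and 12.6 FPKM in the wild type. It shares its locus in the table with hspa13, at 9.43 FPKM in the mutant and 7.90 FPKM in the wild type, and with si:ch211-207n23.2, at 52.5 FPKM in the mutant and 20.0 FPKM in the wild type. Both of these lay higher in the mutant while samsn1a lay lower. Another entry there, si:ch211-149m17.5, was listed at 0 in both libraries, and how reads were divided among them is not stated in the labels or file headers. The gene prkca (ENSDARG00000039241, chromosome 6, 22912210 to 23074768) was 1.05-fold lower. Its symbol is the expression table's own, since its identifier was not found in the table of gene names, which gives PRKCA to other identifiers. Another pair of table entries bears the human name of this gene. PRKCA (2 of 3) stood at 0.341 FPKM in the mutant and 0.886 FPKM in the wild type, and PRKCA (3 of 3) stood at 1.05 FPKM in the mutant and was listed at 0 in the wild type. Both were named after their values were seen.

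On the scale used for all genes, log2((mutant FPKM + 1)/(wild-type FPKM + 1)), 6 of the 9 genes were lower by 2-fold or more, and 0 were higher by that much. Over the 20256 genes with at least 1 FPKM in a library, 7.12% were this much lower and 6.08% this much higher, around a median difference of -0.01. The 6 genes were vsx1 at -2.82, cabp5b at -2.18, rgs11 at -2.02, nyx at -1.91, cabp5a at -1.33 and samsn1a at -1.24. Of the others, grm6b was at -0.90, prkca at -0.07, and grm6a missed the floor of 1 FPKM in both libraries. The gene rgs11 passed that floor through the wild type alone. Low genes differ by 2-fold more often, and the share at least 2-fold lower was 9.62% of 7498 genes with a higher value of 1 to 5 FPKM, 5.98% of 8039 genes at 5 to 20 FPKM and 4.85% of 3710 genes at 20 to 100 FPKM. With a pseudocount of 5 FPKM in place of 1, 2 of the 9 genes were at least 2-fold lower, against 1.78% of all 20256. On the plain ratio it was 8 of 9, against 10.2% of the 21003 genes above 0 in both libraries.

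**Figure D2:**
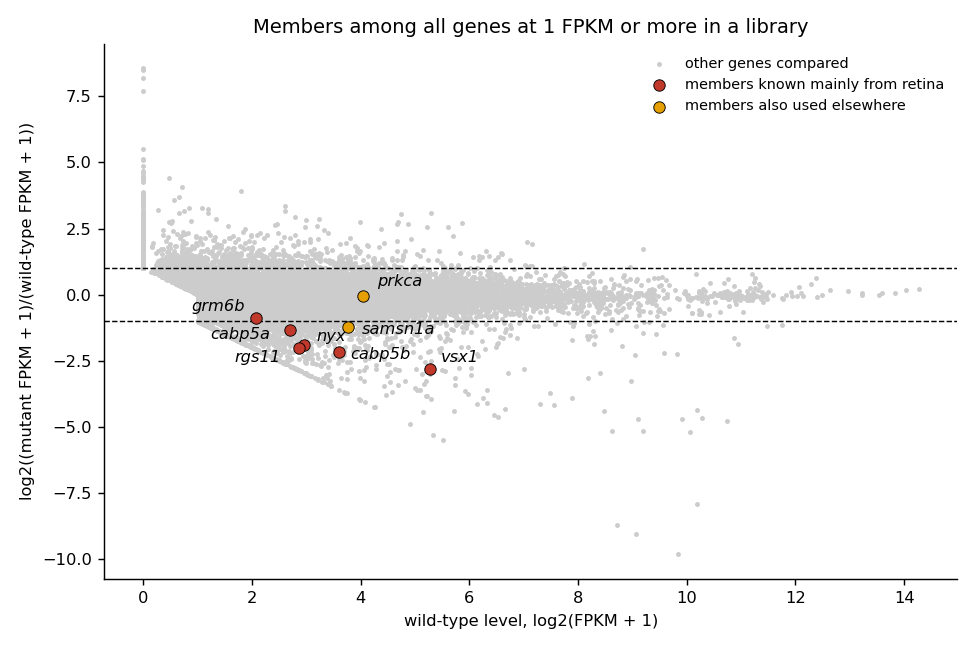
Difference between the libraries against the wild-type level for genes at 1 FPKM or more in a library (grey), with 6 bipolar genes known mainly from the retina in red and samsn1a and prkca in orange, and dashed lines at 2-fold. The gene vsx1 lies at -2.82, rank 112 from the lowest of 20256. The genes nyx and rgs11 lie at -1.91 and -2.02, above the edge set by a mutant value of 0.

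The authors' deposited table tested 7 of the 9 genes, leaving out grm6a and grm6b, and marked 0 of them significant, among 68 genes marked of 14613 tested. In the authors' deposited table the lowest q-value of the 9 was 0.162, for vsx1. They set 1 library against the other and take in no spread between larvae.

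The genes that work beside these receptors were described with a list of 24 entries for ON bipolar signalling, of which 22 matched the table and 21 reached 1 FPKM in a library. On the log2(FPKM + 1) scale, 12 of the 21 were lower by 2-fold or more, against 7.12% of all 20256 genes compared. By as much, 0 of the 21 were higher, against 6.08%. The median difference of the 21 was -1.09. Among the 12, lrit3a, lrit1a, lrit1b, slc1a2a, slc1a8a and slc1a9 passed the floor of 1 FPKM through the wild type alone. Several of these genes serve other neurons or photoreceptors too, and the list was written with earlier results of these data known.

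Among the leucine-rich repeat proteins of the photoreceptor synapse, lrit3a, which in mice is needed for nyctalopin and TRPM1 at the dendritic tip, was at 0.850 FPKM in the mutant and 6.78 FPKM in the wild type. Its relatives lrit1a and lrit1b, expressed by photoreceptors, were 7.98-fold and 21.3-fold lower. The orphan receptor GPR179 holds RGS proteins at the mGluR6 complex in mice, and the entry GPR179 (1 of 2), named after its values were seen, was at 0.147 FPKM in the mutant and 0.770 FPKM in the wild type.

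The G protein genes differed widely. Goα couples to mGluR6, and its genes gnao1b and gnao1a, widely expressed in the brain, were 2.16-fold and 1.46-fold lower. The beta subunit gnb3a was at 4.96 FPKM in the mutant and 22.6 FPKM in the wild type. Its paralogue gnb3b, which cones also use for phototransduction, was at 15.6 FPKM in the mutant and 355 FPKM in the wild type, at a locus shared with ZNF646 (2 of 2). The gamma subunit gng13b was at 15.2 FPKM in the mutant and 37.6 FPKM in the wild type.

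In the group that speeds GTP hydrolysis with Rgs11, rgs7 was at 6.06 FPKM in the mutant and 13.5 FPKM in the wild type. Its obligate partner gene gnb5b, which cones and rods use as well, was 4.52-fold lower. Other genes of this group, named after their values were seen, were short of 2-fold. They were gnb5a at 1.28-fold lower, rgs7bpa at 1.54-fold and rgs7bpb at 1.19-fold. The channel genes trpm1a and trpm1b were short of 2-fold, at 2.81 and 11.9 FPKM in the mutant and at 4.65 and 14.2 FPKM in the wild type. They are named here after their values were seen, and TRPM1 is also a gene of pigment cells.

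Glutamate transporters of the slc1 family clear glutamate from synapses, and one of their genes had the largest plain ratio of the list. This gene, slc1a8a, was at 0.243 FPKM in the mutant and 9.34 FPKM in the wild type, and slc1a2a at 0.717 FPKM in the mutant and 15.6 FPKM in the wild type. Their relative slc1a9 was 3.91-fold lower. In contrast slc1a7b, named after its values were seen, was at 2.29 FPKM in the mutant and 1.05 FPKM in the wild type. This was 0.69 higher on the log2(FPKM + 1) scale, short of the 2-fold call.

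**Figure D3:**
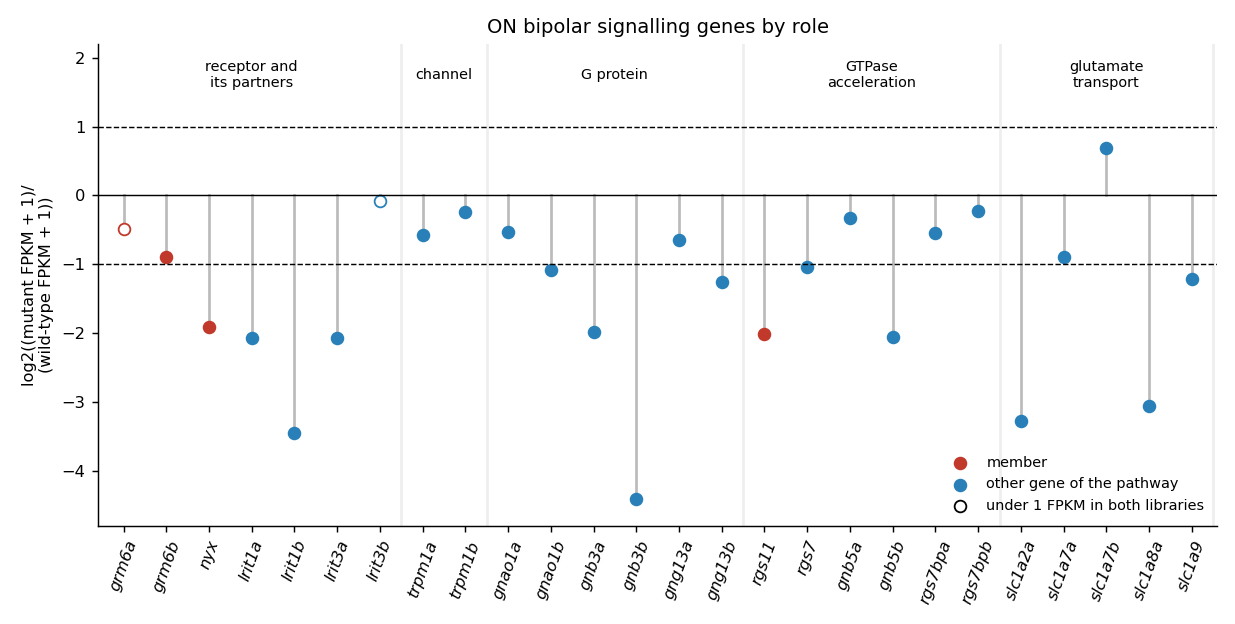
Difference between the libraries on the log2(FPKM + 1) scale for bipolar genes in the mGluR6 pathway (red) and other genes of the pathway (blue), grouped by role, with dashed lines at 2-fold and open circles for genes under 1 FPKM in both libraries. The genes nyx, rgs11 and lrit3a lie near -2, the channel genes trpm1a and trpm1b lie above -1, and gnb3b lies lowest at -4.42.

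Transcription factor genes of bipolar cells other than vsx1 were on both sides of 0. Of 14 table entries over the floor, 8 lay 2-fold or more lower, against 7.12% of all 20256 genes compared. The count that much higher was 0, and the median of the 14 was -1.22. Both the 14 and the 8 include 2 entries of crx. The homeobox gene crx, shared by photoreceptors, bipolar cells and the pineal, has 2 entries at 1 locus, which may have split its reads, at 3.64 and 2.65 FPKM in the mutant and at 31.5 and 25.2 FPKM in the wild type. The related otx2 was 2.97-fold lower and neurod4, a bHLH factor of retinal precursors, 4.32-fold lower. The bHLH genes bhlhe22 and bhlhe23, which specify bipolar subtypes in mice, were 3.20-fold and 2.51-fold lower, both at shared loci, and isl1, an ON bipolar and ganglion cell factor, was 2.59-fold lower. The entry CABZ01029738.1, matched to lhx3 by its identifier, was 7.05-fold lower and passed the floor through the wild type alone.

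At the output side, genes of the ribbon synapse and of glutamate release were lower in 9 of 14 genes over the floor by at least 2-fold and higher in 0, with a median of -1.90. The share this much lower over all 20256 genes compared was 7.12%. Among the 9, cacna1f, CACNA1F (1 of 2), cacna2d4b and cabp4 passed the floor through the wild type alone. The vesicular glutamate transporter slc17a7, at a shared locus, was at 1.29 FPKM in the mutant and 9.22 FPKM in the wild type. An entry outside the list, SLC17A7 (3 of 3), was at 3.10 FPKM in the mutant and 6.06 FPKM in the wild type. The complexin gene cplx4a was 10.1-fold lower, while its relative cplx4c was at 14.2 FPKM in the mutant and 15.0 FPKM in the wild type. Both SLC17A7 (3 of 3) and cplx4c were named after their values were seen. The synaptotagmin genes syt5a and syt5b were 14.1-fold and 5.03-fold lower. The active zone gene rims2b was 2.72-fold lower. Calcium channel genes cacna1f and CACNA1F (1 of 2) were 6.81-fold and 20.6-fold lower, the auxiliary subunit gene cacna2d4b 9.44-fold, and cabp4, their regulator in photoreceptor terminals, was listed at 0 in the mutant and stood at 9.99 FPKM in the wild type. The ribbon gene ctbp2a, whose locus also encodes a widely expressed co-repressor, was 1.82-fold lower. Photoreceptors use most of these genes too.

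Markers of other cells were set beside the bipolar genes. Among 20 photoreceptor markers 17 were at least 2-fold lower, with a median of -3.84. Their summed levels were 311 FPKM in the mutant and 7074 FPKM in the wild type. Among the 17, pde6a, pde6b and nr2e3 passed the floor through the wild type alone. The retinal bipolar genes had a median of -1.96 over the 6 that reached the floor, which leaves out grm6a. On the log2(FPKM + 1) scale the largest possible fall is set by the wild-type level. Of the 6 genes only vsx1 could reach -3.84. The next most abundant, cabp5b at 11.2 FPKM in the wild type, could not do so even at 0 in the mutant. The median of the 6 could therefore not reach -3.84, so its place above the photoreceptor median was set by the wild-type levels. As ratios of summed FPKM, the photoreceptor markers were 22.7-fold lower and the 7 retinal bipolar genes 6.46-fold lower. Horizontal cell markers had a median of -0.52, with 2 of 9 at least 2-fold lower, cx52.6 among them and listed at 0 in the mutant, and summed levels of 148 FPKM in the mutant and 402 FPKM in the wild type. Without pvalb8, a parvalbumin gene, those sums were 62.7 FPKM in the mutant and 88.9 FPKM in the wild type. Amacrine markers had a median of -0.45, with 3 of 17 at least 2-fold lower, and summed to 257 FPKM in the mutant and 356 FPKM in the wild type. Ganglion cell markers had a median of -0.49, with 2 of 14 at least 2-fold lower, and summed to 103 FPKM in the mutant and 156 FPKM in the wild type. The axon growth gene gap43, in the ganglion cell and pan-neuronal lists, was listed at 0 in both libraries. No test sets these medians apart, and many of the inner retinal markers are expressed in the brain as well. Beside the counts of these lists, 7.12% of all 20256 genes compared were at least 2-fold lower.

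Pan-neuronal markers had a median of -0.43, with 2 of 14 at least 2-fold lower, and summed to 840 FPKM in the mutant and 1202 FPKM in the wild type. Leukocyte markers, set beside samsn1a, had a median of 0.16, with 1 of 12 lower and 2 higher by 2-fold or more, and summed to 76.9 FPKM in the mutant and 99.8 FPKM in the wild type. Without the lysozyme gene lyz the sum was higher in the mutant, at 49.5 FPKM in the mutant and 38.9 FPKM in the wild type. Müller glia markers had a median of -0.19 with 7 of 12 below 0, but a higher sum in the mutant, with 1 of 12 lower and 2 higher by 2-fold or more and sums of 2659 FPKM in the mutant and 1832 FPKM in the wild type. Among them were rlbp1a at 5.39 FPKM in the mutant and 26.7 FPKM in the wild type and slc1a3b at 103 FPKM in the mutant and 24.5 FPKM in the wild type. The other higher gene, apoeb, was at 1005 FPKM in the mutant and 494 FPKM in the wild type. Without apoeb the Müller glia sums were 1654 FPKM in the mutant and 1338 FPKM in the wild type. Lens markers had a median of -0.88, with 4 of 10 at least 2-fold lower, and summed to 1804 FPKM in the mutant and 2820 FPKM in the wild type. The part of these cell types in the bipolar differences was not tested. Among all 20256 genes compared, 7.12% were 2-fold or more lower and 6.08% that much higher. Counts of 1 or 2 in lists of 12 or 14 genes do not stand out from these shares.

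**Figure D4:**
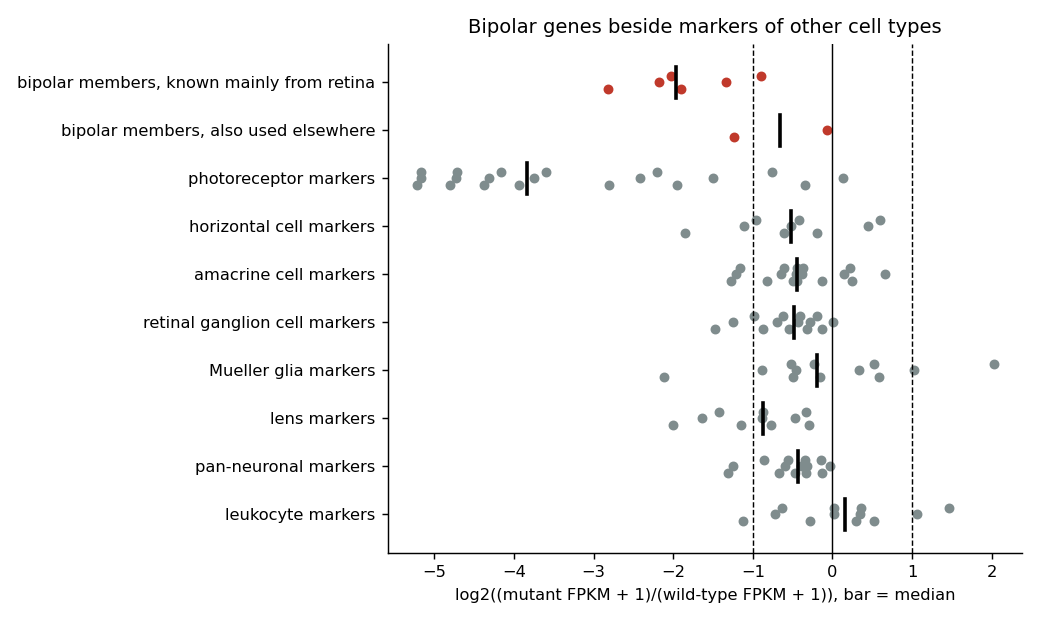
Difference between the libraries on the log2(FPKM + 1) scale for each gene over 1 FPKM in a library (points) and list median (bars), with bipolar genes in red, markers of other cell types in grey and dashed lines at 2-fold. The retinal bipolar genes, with a median of -1.96, lie between the photoreceptor markers at -3.84 and the amacrine and ganglion cell markers at -0.45 and -0.49. The lowest value a gene can reach on this scale depends on its wild-type level. Of the retinal bipolar genes only vsx1 could reach -3.84, so the place of their median above the photoreceptor median was set by level.

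The 9 genes lie on 9 chromosomes, and the nearest table gene on either side of each, leaving out genes that overlap its locus, was used to see whether the differences extended along the chromosome. Of these 18 neighbours 16 were over the floor, 0 differed by 2-fold or more in either direction, and their median was 0.14. Over all 20256 genes compared, 7.12% were 2-fold or more lower and 6.08% that much higher. At these shares few of 16 genes would pass 2-fold in any case, so the count of 0 does not stand out. Among the genes inside a shared locus, si:ch211-207n23.2 beside samsn1a was 1.35 higher in the mutant on the log2(FPKM + 1) scale. Beside vsx1, ube2d1a was at 25.2 FPKM in the mutant and 23.0 FPKM in the wild type, and entpd6 at 30.8 FPKM in the mutant and 27.5 FPKM in the wild type. Beside nyx, ddx3 was at 56.9 FPKM in the mutant and 59.1 FPKM in the wild type.

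**Figure D5:**
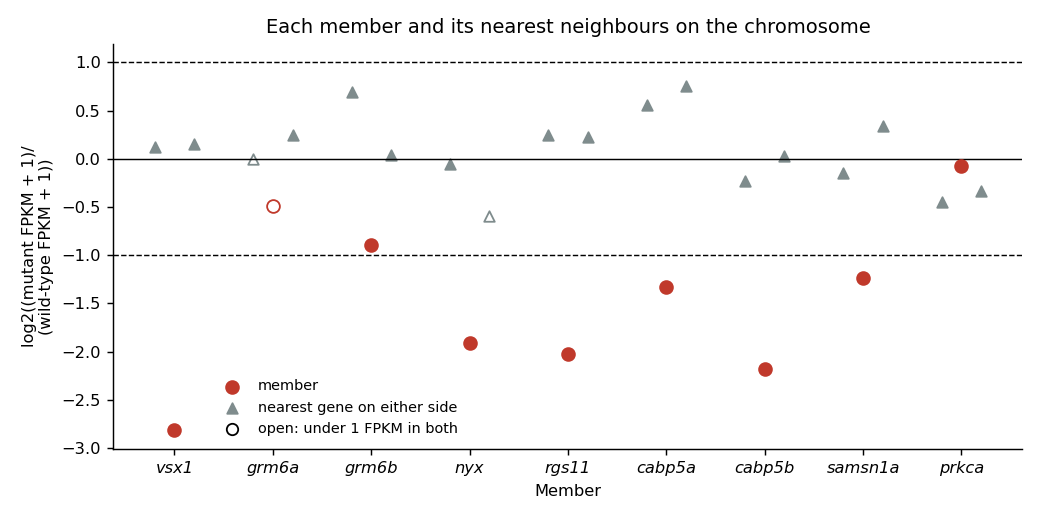
Difference between the libraries on the log2(FPKM + 1) scale for each bipolar gene (circles) and its nearest genes on the chromosome (triangles), open where both libraries were under 1 FPKM. The neighbours lie between the dashed 2-fold lines and 6 bipolar genes, chosen with their values known, lie below -1.

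The genes whose pair of levels lay nearest to that of vsx1, by distance on log2(FPKM + 1) over the 2 libraries, were atp1b2b, ncaldb, cplx4a, aqp9b and si:ch211-229d2.5. Their distances ran up to 0.32 log2 units. The nearest, atp1b2b, a sodium-potassium ATPase beta subunit gene at a shared locus, was at 3.88 FPKM in the mutant and 35.7 FPKM in the wild type. The calcium sensor gene ncaldb was at 5.18 FPKM in the mutant and 35.4 FPKM in the wild type. With 2 libraries, likeness of this kind says only that the levels were similar.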

How the data were processed

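The authors deposited 1 table with an FPKM value per gene for each of 2 pooled whole-larva libraries, per the file headers, and their own p-value and q-value columns. The submitters' processing notes list build Zv9, CASAVA and Bowtie without versions. Neither labels nor headers name the program behind the table. The column codes for wild type and mutant were matched to the labels' titles.

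The second identifier column was used, since 14491 of the 21934 identifiers found in a table of gene names carried the symbol on their line, against 0 of 21937 in the first. Starts were raised by 1, because 19 of 19 single-gene mitochondrial loci then matched RefSeq positions. Total fragments per library are unknown.

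Differences were log2((mutant FPKM + 1)/(wild-type FPKM + 1)) for genes with at least 1 FPKM in a library, called at 2-fold. Counts of genes 2-fold apart used this scale unless stated, and folds given for single genes are plain ratios of FPKM. Exact zeros may be failed estimates and received no fold. The 19 lists held 245 entries, of which 228 matched. A symbol carried by several table genes counted once for each. The naming rule took the 9 genes, list genes at least 2-fold apart or among the 3 most abundant in wild type, and the 5 genes nearest to vsx1. From lists of other cell types and of relatives of the 9 genes only examples are given. The members and lists were chosen with earlier results of these data known. The calling code was checked on simulated data, which is no test of the calls made for these genes. Python 3.11.15 and pandas 2.3.3 were used.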

Additional observations from a re-analysis of the deposited data

How the results depend on the processing

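Each group had 1 library, so nothing could be left out or paired. No paired analysis was possible because the labels give no replicate numbers and each group has 1 library. The count of bipolar genes at least 2-fold lower was 2 with a pseudocount of 5 FPKM, of 8 over the floor. Under the other settings tried it lay between 5, of 6 genes without shared loci, and 8, of 9 genes on the plain ratio. Their median difference was -1.62 with the floor and pseudocount of 1 FPKM. It was -2.14 with a pseudocount of 0.1 FPKM, -0.90 with a pseudocount of 5 FPKM, -1.33 with no floor and -1.91 with a floor of 5 FPKM. Rescaling the mutant by the median ratio gave -1.61, and by summed FPKM without the 10 most abundant genes -1.60. Without genes at a shared locus it was -1.96. Settings chosen after seeing the data gave -2.36 for the plain ratio and -1.91 without prkca. The count of all genes at least 2-fold lower was 1442 of 20256, and became 2219 with a pseudocount of 0.1 FPKM and 361 with 5 FPKM. With a floor of 5 FPKM it was 721 of 12758. Of 116 genes named by rule and over the floor, 29 were no longer 2-fold apart with a pseudocount of 5 FPKM, and 0 changed sign under any setting tried. The fragments behind each value are unknown, which limits most the genes near 1 FPKM, among them nyx, rgs11, cabp5a, cabp5b and grm6b in the mutant. This also limits grm6a, which was under 1 FPKM in both libraries.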

Other observations

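Receptors through which amacrine cells inhibit bipolar terminals were also compared. Of 10 such genes over the floor, 5 lay 2-fold or more lower on the log2(FPKM + 1) scale and 0 that much higher. The shares over all 20256 genes compared were 7.12% and 6.08%. The median of the 10 was -0.84. Of the 5 lower genes, gabrr1, gabrr2a and gabrr3b passed the floor through the wild type alone. Among the 5, gabrr3b and glrba were 4.56-fold and 2.45-fold lower as plain ratios. The GABA rho subunit genes gabrr1 and gabrr2a, of the receptors typical of bipolar terminals, were at 0.586 and 0.201 FPKM in the mutant and at 7.65 and 5.57 FPKM in the wild type, the second at a shared locus. The glycine receptor gene GLRA3 was 3.74-fold lower, while the glycine receptor beta subunit gene glrbb, used across the hindbrain and spinal cord, was at 23.2 FPKM in the mutant and 34.3 FPKM in the wild type. In the other direction, glra2 was at 2.79 FPKM in the mutant and 1.22 FPKM in the wild type, named after its values were seen. This was 0.77 higher on the log2(FPKM + 1) scale, short of the 2-fold call. Ionotropic AMPA and kainate receptor genes, which OFF bipolar cells share with much of the brain, had a median of -0.50, and 1 of 9, gria2b at 2.59-fold, was at least 2-fold lower.

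Relatives of the bipolar genes differed in size of difference. In a list of calcium-binding relatives of CaBP5, 5 of 11 genes were at least 2-fold lower and 0 that much higher, with a median of -0.74. The CaBP relative cabp2a was at 1.63 FPKM in the mutant and 11.0 FPKM in the wild type, and the calretinin genes calb2b and calb2a were 3.16-fold and 2.19-fold lower. Named after their values were seen, cabp1a, cabp1b, cabp2b and cabp7b were short of 2-fold. So was calb1, which lay higher in the mutant, at 11.0 FPKM against 8.12 FPKM in the wild type. Among the 8 genes over the floor of a protein kinase C list that holds no prkca copy, 0 were at least 2-fold apart, with prkcba at 17.1 FPKM in the mutant and 15.2 FPKM in the wild type. Of 11 other metabotropic glutamate receptor entries 5 matched the table, and 0 of the 5 were 2-fold apart, with grm8a at 6.70 FPKM in the mutant and 7.84 FPKM in the wild type. Of all 20256 genes compared, 7.12% were lower and 6.08% higher by 2-fold or more. Counts of 0 in 8 or 5 genes do not stand out from these shares. The unlisted entry GRM5 (1 of 2), named after its values were seen, was at 0.652 FPKM in the mutant and 2.32 FPKM in the wild type. The rgs11 relative rgs9a and its anchor RGS9BP, which end phototransduction in photoreceptors, were 18.6-fold and 18.1-fold lower. In their list 5 of 10 genes were at least 2-fold lower and 0 that much higher, with a median of -0.96. The 5 include rgs7 and gnb5b, given above, and the entry rgs9bp, which passed the floor through the wild type alone. Named after their values were seen, rgs9b, rgs16 and rgs20 were short of 2-fold, and rgs6 was at 4.14 FPKM in the mutant and 3.75 FPKM in the wild type.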
